A study of Homo sapiens with 4 samples.

Results

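The clone-named lncRNA transcripts are long non-coding RNAs of genes that had no approved symbol in the annotation used, so that each gene bears the accession of the genomic clone on which it was found and a serial number. They were chosen by name alone: a transcript type of lncRNA and a gene name of AC, AL or AP, 6 digits, a point and a number. By this rule, 2879 of the 75165 transcripts listed in the YTHDC1 RIP-seq table were members, and they belonged to 2366 of the 20298 listed genes. They made up 49.7% of the 5795 listed lncRNA transcripts and 65.6% of the 3609 genes with a listed lncRNA transcript.

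RIP-seq sequences the RNA that an antibody recovers together with a protein, beside the RNA of the starting lysate. The cells were MDA-MB-231, a human triple negative breast cancer line with mesenchymal features, and in both groups they carried Flag-tagged YTHDC1, overexpressed from a lentiviral vector with a CMV promoter (multiplicity of infection 4, then 2 μg/ml puromycin for 4 days). There were 2 libraries of RNA from anti-Flag immunoprecipitation (Flag-YTHDC1 IP, from 500 μg of nuclear protein) and 2 libraries of input (from 50 μg), all from cells exposed to UV light 3 times at 120000 μJ/cm2. IP with normal mouse IgG is not analysed here. The groups therefore share the overexpressed protein, and cells without it are not analysed here.

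YTHDC1 is the nuclear member of the YTH family of proteins, which bind m6A, a methylated adenosine found in messenger RNA and in many non-coding RNAs. In the nucleus it is known for roles in splicing, in mRNA export and in the function of nuclear lncRNAs. lncRNAs are transcribed by the same polymerase as mRNA, do not encode a known protein, are often retained in the nucleus, and are on the whole less abundant than mRNA. Many start beside a coding gene and run away from it (divergent lncRNAs) or lie across a coding gene on the opposite strand (antisense lncRNAs).

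The level used here is the authors' mean normalized count of each transcript, taken over all 4 libraries together. It is not divided by transcript length, so a long RNA collects more counts than a short one present in as many copies, and it has no value per library, so no SD can be given and library depth is not known. The IP and input libraries enter this mean together. Which members were recovered with YTHDC1 is not analysed here, because that comparison stands in the table only as the authors' own fold changes and p-values, which were not used. By the authors' filter, a transcript needed 5 or more reads in 50% or more of the libraries to be listed, so that reads in both IP libraries or in both input libraries sufficed. Of the markers checked for the cell line, VIM, CD44, AXL and ZEB1 were listed with summed counts from 1823 to 80785, ESR1 and PGR were not listed, CDH1 had 10.0 and EPCAM 78.3. ERBB2, set among the low markers, had 4303.

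Most clone-named lncRNA transcripts were listed with few counts. Their median mean normalized count was 14.5, with quartiles of 7.82 and 33.8, against a median of 44.2 over all listed transcripts and 91.0 over the 39282 protein-coding ones. Of the 2879 members, 1033 (35.9%) had a mean below 10, 1581 (54.9%) lay from 10 to below 100, 252 (8.75%) from 100 to below 1000, and 13 (0.452%) at 1000 or more. The lowest were AC156455.1-206 and AC074286.1-209, both at 2.72, the lowest value in the whole table, followed by AL359643.3-205 at 2.87. Such transcripts lie at the edge of the authors' filter, and nothing can be said of them beyond their being listed.

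Counted by transcript, the clone-named lncRNAs lay close to those with LINC names, which are given to intergenic lncRNAs, but counted by gene they lay lower. The 679 LINC transcripts had a median mean normalized count of 14.2 with 9.28% at 100 or more, against 14.5 and 9.20% in the members. The 326 LINC genes had a median sum of 21.5 with 19.0% at 100 or more, against 15.9 and 11.7% in the member genes. LINC genes had more listed transcripts per gene (679 in 326 genes, against 2879 in 2366), and each adds to the sum of its gene. The 1083 transcripts with antisense names had a median of 17.1 with 12.4% at 100 or more, and the 147 transcripts of SNHG genes, which host small nucleolar RNAs, had a median of 26.8 with 17.7%. The 146 lncRNA transcripts with other clone prefixes, which the naming rule leaves out, had a median of 13.4. Within the members, the 1949 AC, 748 AL and 182 AP transcripts had medians of 14.5, 14.5 and 14.0, so the medians of the 3 prefixes lay close together. These are descriptions across transcripts, which are not replicates, and no test was run on them.

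**Figure D1:**
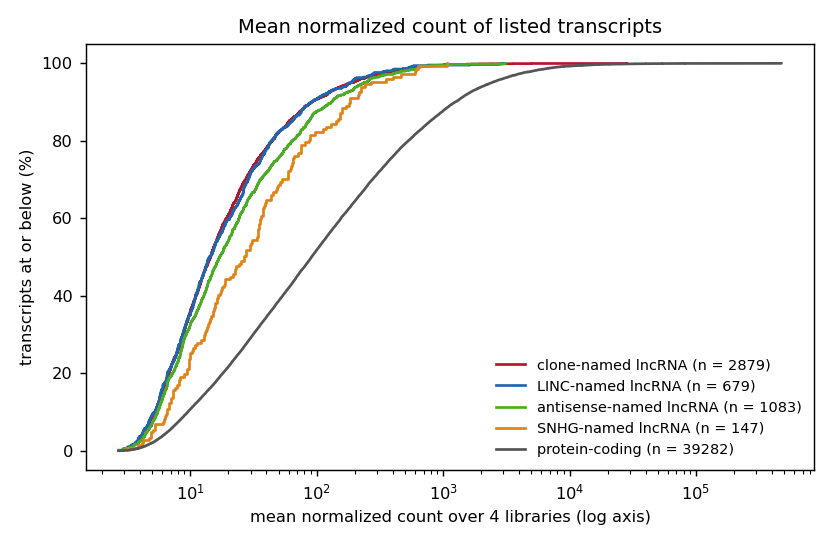
Cumulative share of transcripts (y axis, percent) at or below a given mean normalized count over 4 libraries (x axis, log scale), for clone-named, LINC-named, antisense-named and SNHG-named lncRNA transcripts and for protein-coding transcripts, with 1 line per class. The clone-named line (median 14.5) runs close to the LINC line (median 14.2) and lies to the left of the protein-coding line (median 91.0).

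A few members carried much of the total. The member counts summed to 171063, which is 37.7% of the lncRNA sum and 0.513% of the sum of all transcripts. AL355075.4-201 (ENST00000554988.1, gene ENSG00000259001.3) alone had a mean normalized count of 28392, or 16.6% of the member sum, and was the most abundant lncRNA transcript of the table and the one ranked 68 among all transcripts. It exceeded the next member 5.72-fold. The position of AL355075.4 is not given in the tables used here, so its overlap with other genes was not examined. In particular, RPPH1, the RNA of the tRNA-processing enzyme RNase P, was listed with 150935 counts, and whether any of its reads were assigned to AL355075.4 was not tested. The count, rank and share of AL355075.4 are therefore uncertain. For reference, MALAT1, an abundant nuclear lncRNA, had 45810 over its 9 listed lncRNA transcripts, and NEAT1, the scaffold RNA of paraspeckles, had 4322 over 6. Without AL355075.4, the members held 33.5% of the lncRNA sum. The 10 most abundant members held 28.4% of the member sum, 79 transcripts reached 50% of it, and 1121 were needed to reach 90%. Without AL355075.4-201, 137 transcripts were needed to reach 50%. Of the 100 lncRNA transcripts with most counts, 38 were members, and of the first 1000, 417, against 49.7% of all listed lncRNA transcripts. Members were thus less common among the lncRNA transcripts with most counts than among all of them.

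Below AL355075.4, the counts fell off steeply among the leading genes. AC006058.1 (ENSG00000261786.1) had 4966 normalized counts, AC006064.4 (ENSG00000269968.1) had 3609 and AC093525.7 (ENSG00000269937.1) had 2387. AP002490.1 (ENSG00000251143.1), the leading gene of the AP prefix, had 1936, AL671762.1 had 1679 and AC067852.2 had 1667. AC108010.1 and AL118506.1 followed with 1509 and 1416. Each of these 9 genes had 1 listed transcript, numbered 201, so that no other listed isoform of the gene shared its counts. Their reads may still be shared with other genes, since reads that fit several transcripts were divided among them by RSEM, and overlap with other genes was examined only for the genes placed in the genome below. The further genes of the first 20 were AC012313.1 (1382), AC005670.3 (1324), AC016831.6 (1249), AL713998.1 (1076), AC020916.1 (1040), AC026471.1 (1008), AC093484.3 (1004), AC125232.2 (999.7), AL133415.1 (970.7), AC026748.3 (941) and AC090114.2 (893), each value being the summed mean normalized count of the gene's member transcripts. Among the last 7 of these the sums differ by little, and without values per library their order cannot be tested.

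**Figure D2:**
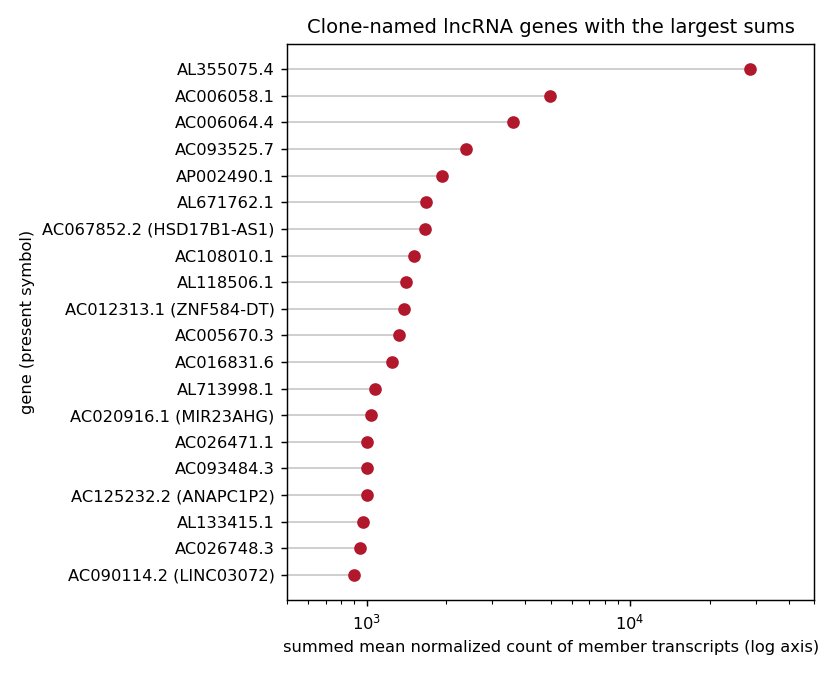
Summed mean normalized count of the member transcripts (x axis, log scale, 4 libraries together) for the 20 clone-named genes with the largest sums (y axis, with the present symbol where there is one), 1 point per gene. AL355075.4 stands apart at 28392, and the other 19 genes lie between 893 and 4966.

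Most clone-named genes were represented by a single transcript. Of the 2366 genes, 2072 (87.6%) had 1 listed transcript, 173 had 2, 66 had 3 and 26 had at least 5, whereas 55.7% of the 1243 other genes with a listed lncRNA transcript had 1. Genes with 1 listed transcript had a median of 13.9 normalized counts, and 9.17% of them reached 100. The 294 genes with at least 2 had a median sum of 51.3, and 29.3% reached 100. Each listed transcript had passed the filter and adds to the sum, so larger sums in these genes are built into the measure. In these 294 genes, the most abundant transcript held a median of 60.4% of the counts (quartiles 51.5% and 74.4%). It held at least 90% in 17 genes and under 50% in 56, and it was the one numbered 201 in 96 (32.7%). In the 173 genes with 2 listed transcripts, the more abundant one cannot hold under 50%, which also limits how low the median and quartiles can be. The genes also held 30 listed retained-intron transcripts, which keep an intron that other transcripts of the gene remove and are not members. In 10 genes such a transcript led. The largest of these was AC084125.2, with 56.5% of 138 counts in AC084125.2-201, followed by AL590399.1, with 60.4% of 114.

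The 5 genes with most listed transcripts, taken by their sum where numbers tied, differed in how their counts were spread. AL139220.2 also had 9 listed transcripts, as many as the last of the 5, but a smaller sum (155). AC005670.3 (ENSG00000262879.6) had 14, of which AC005670.3-234 had 984 normalized counts, or 68.7% of the gene. The others were AC005670.3-230 with 113, the retained-intron transcript AC005670.3-206 with 106, AC005670.3-210 with 56.8, AC005670.3-211 with 52.6 and 9 transcripts from 3.40 to 33.8. AL713998.1 (ENSG00000227706.4) had 9 transcripts with 2 in the lead, AL713998.1-206 at 443 (41.2%) and AL713998.1-208 at 329, and the other 7 from 6.87 to 104. In AC006504.5 (ENSG00000267575.7), which now has the symbol LINC02987, AC006504.5-213 had 151 (28.4%) and AC006504.5-203 had 130, with 9 others from 8.14 to 72.4. In AC092279.2, AC092279.2-236 had 77.1 (22.6%) of the counts of 13 transcripts, AC092279.2-238 had 68.9, and 11 others had 4.33 to 43.1. AL157392.3 was the most even, with 37.6 (17.7%) in AL157392.3-236, 35.6 in AL157392.3-215 and 9 others from 3.77 to 23.1. The estimates of transcripts of a gene share reads, so these splits rest on the authors' statistical assignment.

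**Figure D3:**
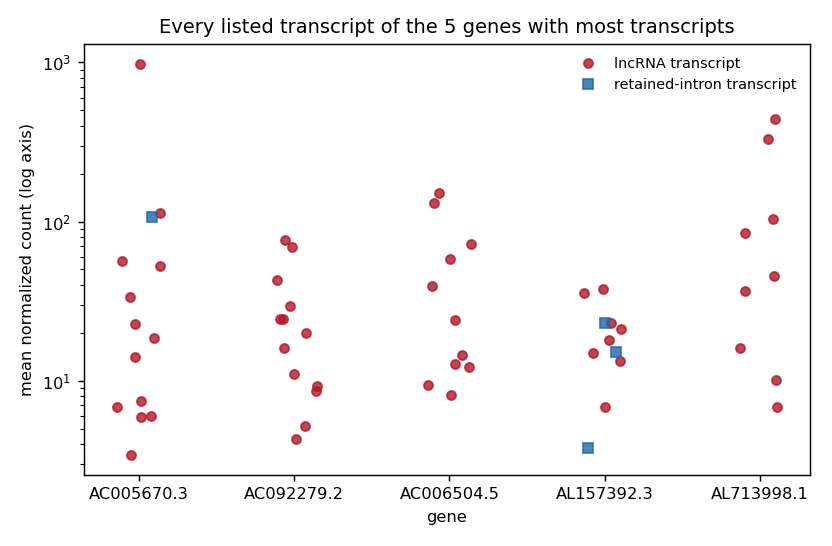
Mean normalized count (y axis, log scale, 4 libraries together) of every listed transcript of the 5 clone-named genes with most listed transcripts (x axis, a tie at 9 transcripts settled by the larger sum), with circles for lncRNA transcripts and squares for retained-intron transcripts. In AC005670.3 a single transcript stands at 984 above the others, which reach 113, while the transcripts of AL157392.3 lie from 3.77 to 37.6.

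Clone names are provisional, and some of the genes have since been given a symbol that says where they lie. Of the 2366 genes, 2330 were found by identifier in a later table of gene names, and 469 of these (20.1%) had a symbol there. Antisense symbols were given to 199, divergent ones to 175, intergenic LINC symbols to 48, microRNA-host symbols to 6, intronic or overlapping ones to 2 and other symbols to 39. The 469 genes had a median sum of 23.4 normalized counts (quartiles 9.66 and 65.4), and 18.3% reached 100. The 1861 genes still without a symbol had a median of 14.8 (quartiles 7.82 and 35.6), with 9.83% at 100 or more. They nevertheless include the 6 genes with the largest sums. Each listed lncRNA transcript adds to the sum of its gene, and numbers of transcripts were not compared between genes with and without a symbol. Genes with divergent symbols had a median of 24.5, those with antisense symbols 20.8 and those with intergenic symbols 19.1, and the 3 ranges overlap widely.

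Among the genes that now have a symbol, the leading one was HSD17B1-AS1 (AC067852.2), antisense to the gene of an estradiol-forming enzyme, with 1667 normalized counts. It was followed by ZNF584-DT (AC012313.1) with 1382, divergent from a zinc finger gene, and by MIR23AHG (AC020916.1) with 1040, the host gene of the miR-23a cluster of microRNAs. ANAPC1P2 (AC125232.2), a copy of the gene of an anaphase-promoting complex subunit, had 999.7, and LINC03072 (AC090114.2) had 893. Further antisense genes were ANXA2R-AS1 (AC025171.2) with 814, TUBA1B-AS1 (AC011603.3) with 749, PHLDA1-AS1 (AC011611.3) with 476 and CD63-AS1 (AC009779.3) with 476, of which the partners TUBA1B and CD63 encode an alpha-tubulin and a tetraspanin. In the deposited table, 6 of the clone-named genes are described as pseudogenes and 5 as readthroughs, ANAPC1P2 and ZNF8-ERVK3-1 (AC020915.1, 746) being the largest. For these, reads can belong to the parent genes, and the counts are uncertain. The partner was listed as a protein-coding gene for 179 of the 199 antisense genes (89.9%) and 174 of the 175 divergent ones (99.4%). Across these pairs, the counts of the lncRNA and of its partner were unrelated, with a Spearman's rho of -0.000734 for antisense and 0.0358 for divergent pairs. These values are given as a description across genes of the same 4 libraries, with counts that are not divided by length.

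**Figure D4:**
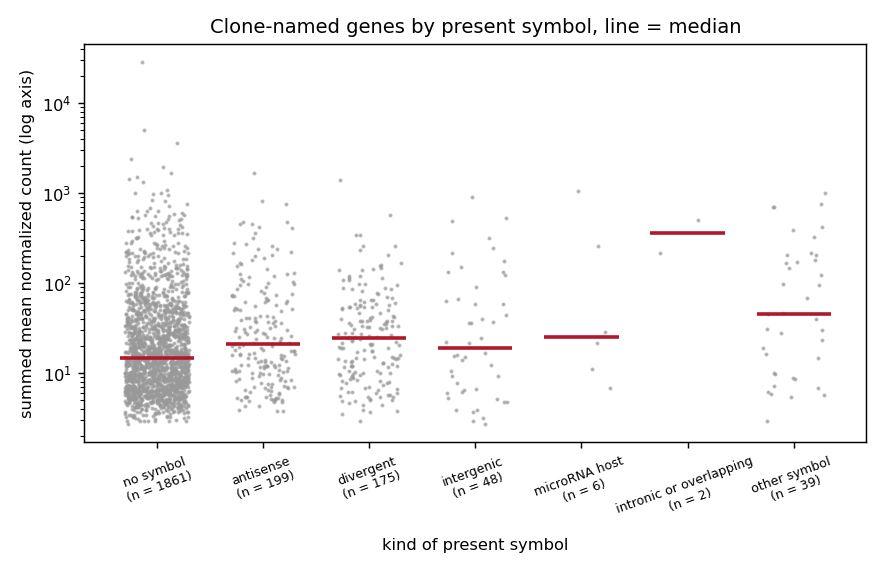
Summed mean normalized count (y axis, log scale, 4 libraries together) of the 2330 clone-named genes found in the later table of gene names, by the kind of symbol they now have (x axis), with 1 point per gene and a line at the median. The medians are 14.8 without a symbol, 20.8 for antisense and 24.5 for divergent symbols, and the points of all kinds overlap.

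To see where the genes begin, they were matched to RefSeq genes of GRCh38.p14, the build of the authors' annotation in a later patch. By gene number in the deposited description or by present symbol, 519 genes (21.9%) matched 517 RefSeq genes. The matched genes had a median sum of 23.8 normalized counts and the unmatched 14.9, with numbers of listed transcripts per gene not compared between them. AL355075.4, AC006058.1, AC006064.4 and AC093525.7 were not among those matched. What follows therefore describes a better known part of the members. Of the 517, 302 (58.4%) overlapped the span of a protein-coding gene on either strand, against 36.2% of the 17826 other RefSeq lncRNA genes. These shares do not compare like with like. A present symbol matched 425 genes, and the commonest kinds, antisense and divergent, are given for a position at a coding gene. The other RefSeq genes also include genes that are not listed here. AP002490.1 (chr11:72014291-72020919) overlaps the span of NUMA1, which encodes a spindle protein, and HSD17B1-AS1 (chr17:42552436-42554802) overlaps HSD17B1. THBS1-IT1 (AC037198.1, chr15:39586126-39587253), with 503 counts, overlaps THBS1, the gene of thrombospondin. MIR23AHG (chr19:13834516-13842918) and TUBA1B-AS1 (chr12:49131606-49147863) overlap no coding gene. The RIP-seq libraries were made with a stranded kit, but whether the authors' counting used strand is not stated in the sources used here, so counts of overlapping genes are uncertain. Genes that overlap a coding gene had a median of 23.4 counts and the others 24.4. Whether reads of the coding genes entered these counts was not tested.

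Start sites with the sequence around them were at hand for 387 of the matched genes. None of the 387 lies on chromosome 8, which held 25 matched genes. In 169 of the 387 (43.7%), a protein-coding gene began within 1000 bases behind the start and ran the opposite way, an arrangement known as head-to-head. The same held for 27.8% of the 745 other listed lncRNA genes matched by symbol and for 12.2% of the 11077 other RefSeq lncRNA genes with a start, which include genes that are not listed here. The median distance between the starts was 155 bases (quartiles 92 and 250). Head-to-head starts were found for 108 of the 127 genes with divergent symbols (85.0%), a symbol given for this position, and in 106 genes the neighbour was the one named in the symbol. They were also found for 36 of 138 genes with antisense symbols (26.1%), for 20 of 69 genes without a symbol (29.0%) and for 0 of 24 with intergenic symbols. Most of the 169 genes thus had divergent symbols, and the share without a symbol lay close to that of the other listed lncRNA genes (27.8%). The head-to-head genes had a median of 23.8 normalized counts (quartiles 9.55 and 54.9) and the 218 others 24.8 (quartiles 10.6 and 81.3), and these ranges overlap.

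**Figure D5:**
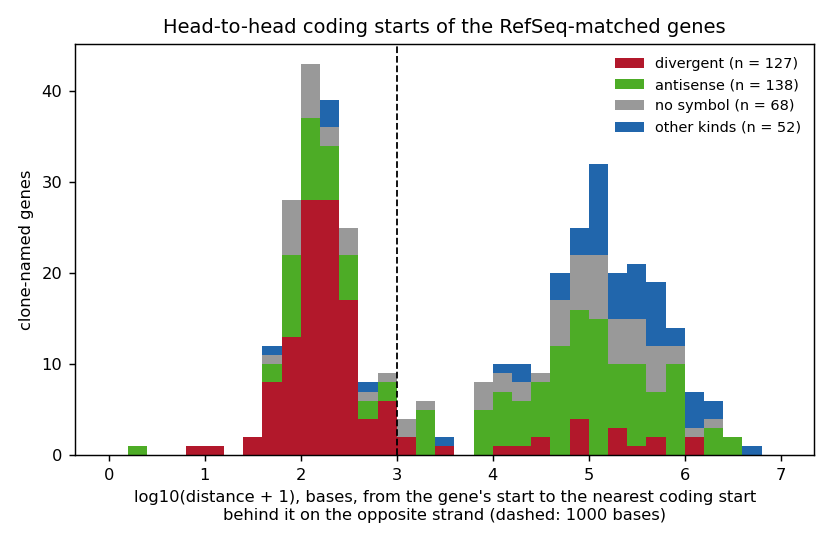
Number of RefSeq-matched clone-named genes (y axis) by the distance in bases, as log10(distance + 1), from the gene's start to the nearest protein-coding start behind it on the opposite strand (x axis), coloured by the kind of present symbol. The dashed line marks 1000 bases; 169 genes lie to its left, most of them with divergent symbols, and 2 genes with no such coding start are left out.

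The windows from 250 bases before to 50 bases after these starts were rich in G and C. The median GC content was 65.0% (quartiles 56.3% and 71.3%) in the 387 windows of the clone-named genes, with a median of 23 CG dinucleotides. In the other listed lncRNA genes it was 61.0% with 19, in the 15843 protein-coding genes with a start 62.7% with 22, and in the other RefSeq lncRNA genes 49.3% with 4. GGGCGG, the GC box, was present on either strand in 57.9% of the clone-named windows, against 44.6% of the windows of all 27305 genes, 58.5% of those of protein-coding genes and 51.9% of those of the other listed lncRNA genes. The letters CCAAT were present in 29.5% of the clone-named windows, against 35.7% of all, 36.4% of protein-coding and 35.6% of other listed lncRNA windows. The core promoter element TATAAA was present in 4.65%, against 12.0%, 9.63% and 8.59% in the same order. The 127 genes with divergent symbols had a median GC content of 68.7% and the GC box in 70.9% of windows. The 138 with antisense symbols had 65.7% and 65.2%. The 69 without a symbol had 58.7% and 31.9%, below the 61.0% and 51.9% of the other listed lncRNA genes. The values over all 387 windows therefore describe mainly genes with divergent or antisense symbols. A match describes these letters and is no evidence of a bound factor.

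The windows below come from clone-named genes whose start was at hand, taking those of each arrangement with the largest sums. The first 3 are of genes that start head-to-head with a coding gene, and the last 2 are of genes that do not. They are RefSeq sequences of GRCh38.p14, read 5′ to 3′ along the lncRNA, which starts at position 251 of each. Capitals mark the 3 motifs on either strand, and overlapping matches are counted separately. ZNF584-DT (AC012313.1, 1382 counts) is at chr19:58408414-58408713 on the minus strand, and ZNF584 starts at position 65, running the other way. Its window has 35 CG dinucleotides, 5 GC boxes and 2 CCAAT matches, of which the one on the other strand overlaps a GC box.
ZNF584-DT: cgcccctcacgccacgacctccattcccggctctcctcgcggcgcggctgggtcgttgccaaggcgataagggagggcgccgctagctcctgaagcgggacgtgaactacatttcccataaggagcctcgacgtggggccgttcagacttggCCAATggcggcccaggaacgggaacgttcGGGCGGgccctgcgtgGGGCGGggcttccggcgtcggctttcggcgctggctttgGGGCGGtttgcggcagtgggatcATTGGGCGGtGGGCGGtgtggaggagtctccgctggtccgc
TUBA1B-AS1 (AC011603.3, 749 counts) is at chr12:49131356-49131655 on the plus strand, with the start of TUBA1B at position 40, 43 CG dinucleotides and 4 GC boxes.
TUBA1B-AS1: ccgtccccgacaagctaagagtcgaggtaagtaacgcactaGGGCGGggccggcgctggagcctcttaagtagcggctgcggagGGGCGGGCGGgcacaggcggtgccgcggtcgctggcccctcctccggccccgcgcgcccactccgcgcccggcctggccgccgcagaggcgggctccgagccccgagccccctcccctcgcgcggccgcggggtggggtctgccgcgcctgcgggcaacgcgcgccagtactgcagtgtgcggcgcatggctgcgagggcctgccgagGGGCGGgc
AC008969.1 (582 counts), which has no symbol, is at chr19:58002644-58002943 on the plus strand, with the start of ZNF606, a zinc finger gene, at position 177, 37 CG dinucleotides and 1 GC box.
AC008969.1: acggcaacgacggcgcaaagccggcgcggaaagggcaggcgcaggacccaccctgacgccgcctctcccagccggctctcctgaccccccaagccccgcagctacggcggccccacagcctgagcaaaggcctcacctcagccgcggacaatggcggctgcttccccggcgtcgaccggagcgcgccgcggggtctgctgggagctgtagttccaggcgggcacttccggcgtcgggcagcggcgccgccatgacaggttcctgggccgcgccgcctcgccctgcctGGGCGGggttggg
AP002490.1 (1936 counts) is at chr11:72014041-72014340 on the plus strand. The nearest coding start behind it on the opposite strand, of XNDC1N, is 85697 bases away, and its window has 9 CG dinucleotides, no GC box and 1 CCAAT match.
AP002490.1: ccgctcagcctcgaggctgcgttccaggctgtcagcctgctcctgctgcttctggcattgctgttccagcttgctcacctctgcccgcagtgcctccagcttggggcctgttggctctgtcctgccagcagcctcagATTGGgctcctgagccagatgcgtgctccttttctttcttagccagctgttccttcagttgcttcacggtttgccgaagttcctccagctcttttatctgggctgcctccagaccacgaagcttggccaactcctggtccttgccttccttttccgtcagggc
HSD17B1-AS1 (AC067852.2, 1667 counts) is at chr17:42554753-42555052 on the minus strand. The nearest such coding start, of COASY, is 7346 bases away, and its window has 30 CG dinucleotides and 3 GC boxes.
HSD17B1-AS1: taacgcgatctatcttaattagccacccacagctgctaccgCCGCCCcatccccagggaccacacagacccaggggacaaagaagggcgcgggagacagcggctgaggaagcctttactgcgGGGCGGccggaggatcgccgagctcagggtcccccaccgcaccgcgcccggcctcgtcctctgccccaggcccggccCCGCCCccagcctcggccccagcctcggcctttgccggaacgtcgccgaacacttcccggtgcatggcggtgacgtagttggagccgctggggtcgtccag

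Clone names also show which genes lie near each other, since genes that share an accession come from the same stretch of cloned DNA. The 2366 genes came from 1875 clones. In 1531 clones there was 1 clone-named gene, and the other 344 held 835 genes. Clones AC012313 and AC009065 held 8 each. On AC012313 the sums were 1382 for ZNF584-DT (AC012313.1), 564 for ZNF132-DT (AC012313.8), 115 for AC012313.2, 43.0 for ZNF497-AS1 (AC012313.6), 38.1 for AC012313.5, 20.5 for AC012313.3, 10.1 for AC012313.9 and 9.29 for AC012313.7. On AC009065 the sum was 183 for AC009065.2, and the other 7 genes, among them ECI1-AS1 (AC009065.9), MIR3677HG (AC009065.5) and PKD1-AS1 (AC009065.3), had 5.27 to 19.3. Neighbouring clone-named genes thus spanned a wide range of counts on AC012313, while on AC009065 only AC009065.2 stood apart from the others. The other clones were not examined in this way.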

How the data were processed

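The 4 RIP-seq libraries of MDA-MB-231 cells, 2 Flag-YTHDC1 IP and 2 input, were grouped by the sample labels. Reads were mapped by the authors to GRCh38 and a GENCODE transcriptome (STAR 2.7.2b), and transcript reads were estimated with RSEM 1.2.31 (versions from the submitters' processing notes). Transcripts with 5 or more reads in 50% or more of the samples were kept, unwanted variation was removed with RUVSeq, and the authors set IP against input with DESeq2. RSEM divides reads that fit several transcripts by a statistical estimate, so related genes and isoforms can exchange counts. The authors deposited 1 table, in which the signal per transcript is the mean of normalized counts, made by the authors over the 4 libraries together. Further columns hold the authors' own comparison (log2 fold change with standard error, raw and adjusted p), and these were not used. An edgeR test of IP against input had been planned for counts per library and was not run, as the table gives none. Depth per library is unknown.

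Members were found by transcript type and gene name. The members and lists were chosen with earlier results of these data known. Named genes were the 20 with the largest sums, the 10 most abundant transcripts, the 5 genes with most transcripts, the 3 lowest transcripts, the first gene of each prefix and genes of the first 20 with a later symbol. MALAT1 and NEAT1 served as reference. Of the cell line markers, 1 is not reported here. Other genes were named after their values were seen. The lists by present symbol, the clones, the RefSeq matches, the 1000-base limit and the motifs were also chosen after the data were seen. Present symbols came from a table of gene names, and spans and starts from RefSeq tables of GRCh38.p14. Windows and distances were taken from the first start listed for a gene (42 matched genes had more than 1). The neighbouring coding start was sought among all starts listed for coding genes. The 2 genes whose number and symbol pointed to different RefSeq genes were left unmatched. In 97 of 97 overlapping pairs of opposite windows the sequences were reverse complements. The tools were Python (3.11.15) with pandas (2.3.3) for tables, matplotlib (3.10.9) for plots, and numpy (2.4.6) and scipy (1.17.1) for statistics, and the naming rule was tested on simulated data.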

Additional observations from a re-analysis of the deposited data

How the results depend on the processing

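The number of members was 4497 when any transcript type was taken and 1846 with a minimum mean normalized count of 10. Their share of the lncRNA transcripts, 49.7%, became 47.9% with a minimum of 10, 42.0% with a minimum of 100, 52.2% with any clone-like name, 65.6% counted by genes and 37.7% without the genes that have another symbol. Their share of the lncRNA counts, 37.7%, became 42.5% without the 10 most abundant lncRNA transcripts, 37.2% with a minimum of 10, 34.4% with a minimum of 100 and 38.8% with any clone-like name. The share of members with at least 100 normalized counts was 9.20%, and it was 11.7% by genes, 17.9% at a threshold of 50 and 4.72% at 200. The 10 most abundant members held 28.4% of the member counts, 28.6% by genes and 14.9% without the most abundant member, AL355075.4-201. No paired analysis was possible because the table gives no value per library, and for the same reason no replicate could be left out and no other normalization or count test was run. With 1 mean over IP and input together, differences between groups and the spread between replicates cannot be seen.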

Other observations

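Besides the lncRNA transcripts, 1618 listed transcripts of other types had a gene name of the same form. They were mostly processed pseudogenes (449), transcripts of the annotation's TEC type (253), processed transcripts (226) and protein-coding transcripts (211), so a clone name alone does not mark a lncRNA.

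On some chromosomes the share of the matched clone-named genes lay apart from that of all RefSeq lncRNA genes, and on others it lay close. Chromosome 19 held 34 of the 517 matched genes (6.58%), against 2.67% of all RefSeq lncRNA genes and 7.23% of protein-coding genes. Chromosome 13 held 3 (0.580%), against 3.45% and 1.69%, and chromosome 1 held 43 (8.32%), against 8.77% and 10.3%. Many of the matched genes have symbols given for a position at a coding gene, and the RefSeq genes include genes that are not listed here. Whether these shares differ beyond chance was not tested. Among the 374 genes with antisense or divergent symbols, 13 had a partner named ZNF and a number, a group singled out after its values were seen. Their median sum was 43.0 normalized counts (quartiles 13.0 and 97.4), against 22.0 over all 374, and 3 of the 13 (23.1%, against 15.0% of all 374) reached 100, namely ZNF584-DT (1382), ZNF132-DT (564) and ZNF8-DT (AC020915.3, 139). ZNF778-DT (AC009113.1) had 97.4 and ZNF566-AS1 (AC092295.2) 68.7.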
